A study of Mus musculus with 4 samples.

Results

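The 44 genes described here drive or restrain cell division, and they were chosen by name from the deposited peak table of an ATAC-seq study of retinal endothelial cells. ATAC-seq maps open chromatin by letting a transposase cut and tag accessible DNA. Of the 6891 peaks in the table, 27 were assigned by the authors to 16 of the 44 genes, and 28 of the genes had no listed peak. All listed peaks together name 4992 genes. The share of all mouse genes with a listed peak was not computed, so counts of genes with a peak have no background here. The genes were read in 4 roles, namely cyclins and kinases, inhibitors, E2F and MYC regulators, and replication and proliferation-marker genes.

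The knockout (KO) pups carried Rnf20p/p alleles with the tamoxifen-inducible Cre labelled Pdgf{beta}CreERT2pos, and the control (CTR) pups carried Rnf20p/p alleles labelled Pdgf{beta}CreERT2neg. RNF20 is an E3 ligase that places ubiquitin on histone H2B, and the Pdgfb promoter drives the Cre in endothelial cells. The strain label, which is the same for both groups, names a C57BL/6 background, the Pdgfb-icre/ERT2 transgene and the Rnf20tm1a(EUCOMM)Wtsi allele. Both groups were given 75 µg of (Z)-4-HO-Tamoxifen on each day from P1 to P4, and were taken at P7, so the controls shared the alleles and the drug. Endothelial cells (EC) were bound to CD31 magnetic beads from digested Retina, and the labels do not say whether pups were pooled. Of the 4 libraries, 1 KO and 1 CTR library have labels that agree, and for 2 the title and the genotype field contradict each other. The table gives 1 mean per group and peak, so no spread between animals can be given. Rnf20 itself had 0 listed peaks, so the table does not check the deletion.

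Cyclins bind and switch on cyclin-dependent kinases, which phosphorylate the retinoblastoma proteins and so release E2F factors to transcribe the genes of DNA replication. Inhibitors of the CIP/KIP and INK4 families hold these kinases back, and the kinases encoded by Plk1, Aurka and Aurkb act later, in mitosis. In the retina at this age endothelial stalk cells divide behind the sprouting tip cells, and vessel growth needs both division and its local arrest.

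The cell cycle genes showed 1 change past a false discovery rate (FDR) of 0.05, a loss of accessibility at a distal site assigned to Plk2. This was 1 of 27 peaks (3.70%), against 3.02% of all 6891 listed peaks, a share near the background. The table lists only peaks at an unadjusted p of 0.05 or less, and the other 26 peaks of these genes did not pass the FDR threshold. By the sign of the log2 fold (KO minus CTR), 12 of the 27 (44.4%) were higher in KO, against 62.1% of all listed peaks, and 15 (55.6%) were lower, against 37.9%. Of the 27, 7 lay within 1 kb of a start site, where 757 of all 6891 did. At that range 69.4% of all listed peaks were lower. The shares of 62.1% and 37.9% are thus not matched for position, here or by role below. The median log2 fold of the 27 peaks was -0.62, against 0.93 for all listed peaks in the authors' deposited table. No listed log2 fold was smaller than 0.59 in size, so no listed peak lies near a log2 fold of 0. At FDR < 0.10, 4 of the 27 peaks of these genes passed, where 544 of all 6891 listed peaks (7.89%) did. They were the Plk2 site, a second peak beside it, a peak assigned to Cdkn2b and a peak assigned to Ccnd1.

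**Figure D1:**
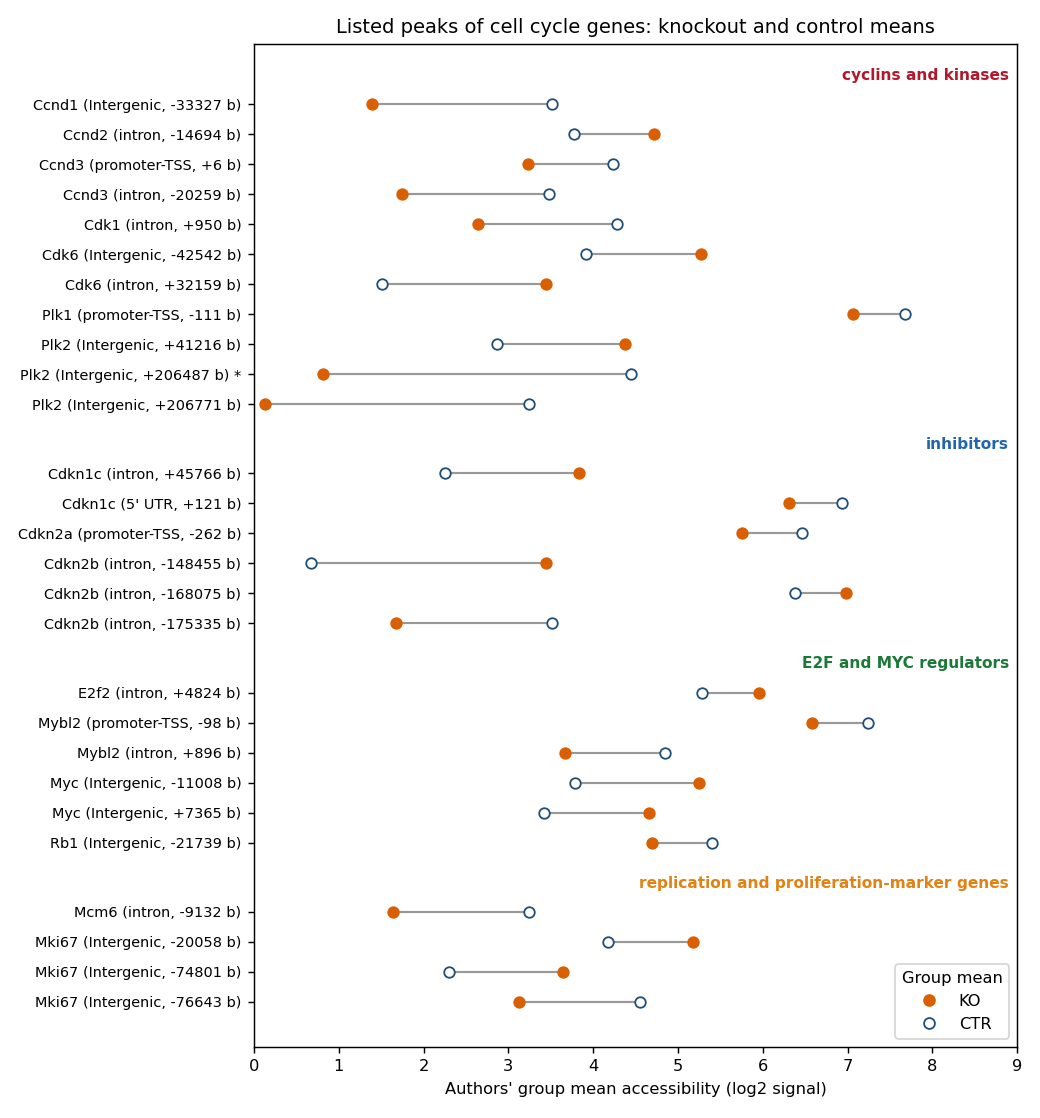
Knockout (filled) and control (open) mean accessibility in log2 signal for each of the 27 listed peaks, grouped by role, with the annotation class and the signed distance to the annotated start site in bases. The asterisk marks the Plk2 peak with FDR 0.000399. The Plk1 promoter is the strongest peak, at 7.06 in KO and 7.68 in CTR, and the widest separations are at the Plk2 pair and at a Cdkn2b intron peak.

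The clearest common feature was position. All 7 peaks within 1 kb of an annotated transcription start site had negative folds, and these belong to Plk1, Ccnd3, Cdk1, Mybl2 (2 peaks), Cdkn2a and Cdkn1c. Among all listed peaks within 1 kb of a start site, 69.4% (525 of 757) were lower in KO, so the direction of these 7 is also that of most promoter-near peaks in the table. Farther than 1 kb from a start site, 8 of 20 peaks of the cell cycle genes (40.0%) were lower, against 34% of all listed peaks at that range. The lower ones were 1 of 3 at 1 to 10 kb (44.9% of all listed peaks there), 3 of 10 at 10 to 50 kb (36.1%) and 4 of 7 over 50 kb (24.6%). Those over 50 kb include 2 Plk2 peaks 115 bases apart, which may not be independent readings. None of the 7 peaks within 1 kb passed FDR 0.05, their smallest FDR being 0.238 in the authors' deposited table. Over the 7 peaks the median level was 5.75 in KO and 6.46 in CTR in the authors' deposited table. The split at 1 kb was chosen after the values were seen.

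**Figure D2:**
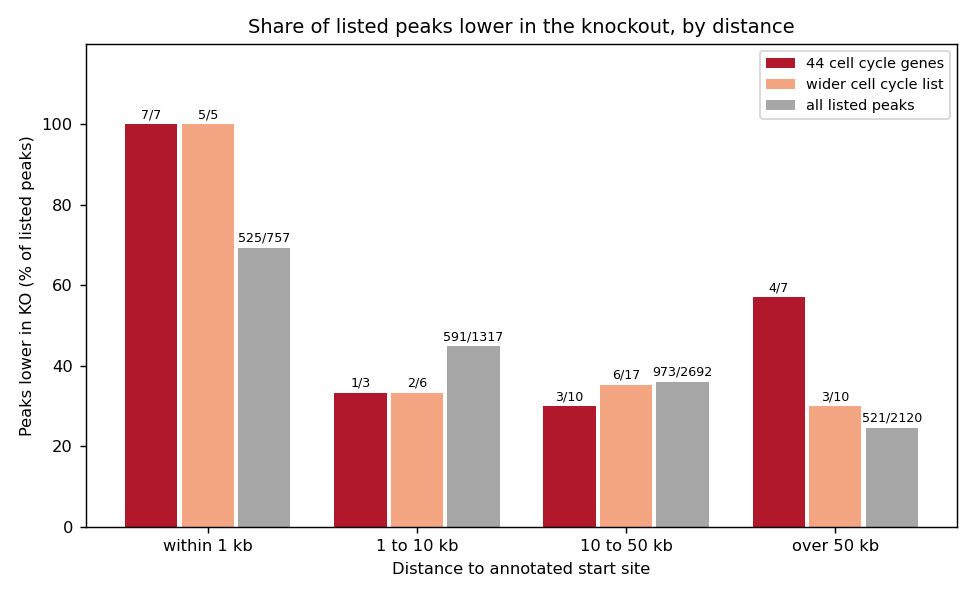
Percent of listed peaks that were lower in KO, by distance to the annotated start site, for the 44 cell cycle genes, a wider cell cycle list and all listed peaks, with the counts above each bar. Within 1 kb the share was 100% (7 of 7) and 100% (5 of 5) for the cell cycle lists and 69.4% for all listed peaks.

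Promoter peaks were few and mostly strong. Coordinates are those of the deposited table, on mm10. Plk1, the kinase that drives entry into mitosis, had a promoter peak on chromosome 7 from 122158772 to 122159875, 1103 bases wide, with a level of 7.06 in KO and 7.68 in CTR (log2 fold -0.62 at FDR 0.436 by the authors' deposited table). Mean signal there was above that of 99.8% of listed peaks. Mybl2 encodes B-MYB, a transcription factor that activates late cell cycle genes. Its promoter peak on chromosome 2, from 163054185 to 163054888, stood at 6.58 in KO and 7.24 in CTR (log2 fold -0.66 at FDR 0.238 by the authors' deposited table). Cdkn2a, which encodes the tumour suppressors p16INK4a and p19ARF from separate first exons, had a promoter peak on chromosome 4 from 89294395 to 89295366. Its level was 5.75 in KO and 6.46 in CTR (log2 fold -0.71 at FDR 0.337 by the authors' deposited table). The promoter class of that peak comes from a non-coding transcript, the same one whose intron holds the Cdkn2b peaks, and the authors assigned the peak to Cdkn2a at -262 bases from its start. The peak overlaps Cdkn2a and also Gm12610, a long non-coding RNA gene whose RefSeq span begins at 89295180, so its signal cannot be divided between the 2 start sites. On the Cdkn2a side it covers the outermost start of the gene, at 89294619, and reaches into the gene only as far as 89294395. A first exon farther inside is not under this peak. Ccnd3, the gene of cyclin D3, had a peak of 82 bases at its promoter on chromosome 17, from 47505016 to 47505098, with 3.23 in KO and 4.23 in CTR (log2 fold -1.0 at FDR 0.450 by the authors' deposited table). All 4 promoter peaks of the cell cycle genes thus had negative folds, where 63.6% of the 415 listed promoter peaks did. The median width was 837 bases for the 4 and 315 bases for all listed promoter peaks, and the median mean signal was 6.55 and 4.29 in the authors' deposited table.

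The promoter sequences at these 4 peaks are shown. Each is the 250 bases before the start site in the RefSeq promoter table (GRCm38.p6, the build also called mm10), written 5′ to 3′ on the gene's strand, with matches to the searched motifs in capitals. The windows are chr7:122159185-122159434 on the plus strand for Plk1, chr2:163054385-163054634 on the plus strand for Mybl2, chr4:89294620-89294869 on the minus strand for Cdkn2a and chr17:47504801-47505050 on the plus strand for Ccnd3. All 250 bases lie inside the peak for Plk1, Mybl2 and Cdkn2a, and the last 35 do for Ccnd3.
Plk1: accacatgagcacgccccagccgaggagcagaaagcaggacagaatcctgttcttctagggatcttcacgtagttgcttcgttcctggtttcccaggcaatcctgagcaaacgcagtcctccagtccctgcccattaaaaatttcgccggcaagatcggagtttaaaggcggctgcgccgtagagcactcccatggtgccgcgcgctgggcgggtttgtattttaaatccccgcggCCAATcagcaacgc
Mybl2: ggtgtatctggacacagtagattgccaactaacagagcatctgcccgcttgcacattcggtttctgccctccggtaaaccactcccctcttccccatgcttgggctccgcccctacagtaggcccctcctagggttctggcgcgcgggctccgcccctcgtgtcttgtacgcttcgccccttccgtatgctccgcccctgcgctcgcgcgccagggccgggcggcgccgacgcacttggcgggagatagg
Cdkn2a: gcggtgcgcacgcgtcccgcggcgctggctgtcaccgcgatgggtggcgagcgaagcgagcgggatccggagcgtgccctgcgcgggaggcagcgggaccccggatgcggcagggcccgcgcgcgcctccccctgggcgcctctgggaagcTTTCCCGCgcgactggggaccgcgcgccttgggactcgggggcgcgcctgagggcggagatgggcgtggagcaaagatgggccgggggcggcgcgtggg
Ccnd3: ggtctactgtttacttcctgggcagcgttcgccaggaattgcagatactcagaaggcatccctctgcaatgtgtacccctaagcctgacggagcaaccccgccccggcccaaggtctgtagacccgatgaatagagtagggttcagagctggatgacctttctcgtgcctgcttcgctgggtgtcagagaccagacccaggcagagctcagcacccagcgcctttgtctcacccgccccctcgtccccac
Capitals mark 1 match in each of 2 windows. In Cdkn2a an E2F match, TTTCCCGC, lies at -99 to -92 from the start, and in Plk1 a CCAAT box lies at -14 to -10. No searched motif was found in the Mybl2 and Ccnd3 windows shown. Only exact matches to fixed letters were sought, so a site that differs in any base is unmarked. A window without capitals may therefore still hold a binding site.

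Motif letters were searched on both strands in all 32851 such windows of the 27025 genes in the table, which holds 41 windows for 34 of the 44 cell cycle genes. Some genes have several start sites, and a gene was counted when any of its windows held the letters. The E2F letters TTTNNCGC were present in 10 of the 34 genes (29.4%), against 4.94% of all genes. They were in Cdk1, Cdk2, Cdk6, Cdkn2a, E2f3, Mcm5, Mcm6, Mcm7, Mycn and Rbl1. The cell cycle homology region TTTGAA was in 10 of 34 (29.4%), against 18.3% of all genes, and CCAAT in 20 of 34 (58.8%), against 37.5%. Ccnd3 is among these 20 through the window of its other start site, not the one shown. The E-box CACGTG was in 3 of 34 (8.82%), against 6.86%. The AP-1 letters TGANTCA and the ETS letters ACCGGAAG were in 0 of the 34, against 7.82% and 1.95% of all genes. Base composition differed with the set, at a mean of 60.7% G and C in windows of the cell cycle genes and 53.2% in all windows. Of the 10 genes with these E2F letters, Cdk1, Cdk6, Cdkn2a and Mcm6 had listed peaks, where 11 of all 34 genes did. Of these, only Cdkn2a had the E2F match under a listed peak assigned to it.

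Cyclins and kinases had 11 listed peaks at 7 of 17 genes, 4 of the peaks higher (36.4%, against 62.1% of all listed peaks) and 7 lower in KO. The 10 genes with none were Aurka, Aurkb, Bub1, Ccna2, Ccnb1, Ccnb2, Ccne1, Ccne2, Cdk2 and Cdk4, which include the S phase and mitotic cyclins. Plk2 encodes a polo-like kinase of centriole duplication and of the response to stress, and it had the only called peak. That intergenic site on chromosome 13, from 110601424 to 110601638, fell to 0.82 in KO, against 4.45 in CTR (log2 fold -3.62 at FDR 0.000399 by the authors' deposited table). It ranked 7 among the 6891 listed peaks by p-value and was one of the 1.73% of listed peaks that were called lower. A second peak 115 bases away, from 110601753 to 110601876, was at 0.13 in KO and 3.24 in CTR (log2 fold -3.11 at FDR 0.0572 by the authors' deposited table). The value 0.13 is the lowest in the KO column and is shared by 65 listed peaks, so this fold depends on that floor. The KO level of 0.82 at the called peak lies close to that floor. The pair lies 206487 and 206771 bases from the Plk2 start site and outside any gene in the RefSeq table, with the predicted genes Gm32990 and Gm33045 as nearest neighbours. These 2 peaks may not be independent readings, though each counts among the 7 lower. Nearer to the gene, 41216 bases from its start, another Plk2 peak was at 4.37 in KO and 2.86 in CTR (log2 fold 1.51 at FDR 0.531 by the authors' deposited table).

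The 3 D-type cyclins, which carry growth signals to CDK4 and CDK6, did not share a direction. Ccnd1 had an intergenic peak on chromosome 7 (144973187 to 144973316), at -33327 bases from its start, at 1.39 in KO and 3.52 in CTR (log2 fold -2.13 at FDR 0.0922 by the authors' deposited table). Ccnd2 had a peak inside the long non-coding RNA gene 9330179D12Rik on chromosome 6 (127165540 to 127165944), at 4.72 in KO and 3.77 in CTR (log2 fold 0.95 at FDR 0.392 by the authors' deposited table). Besides its promoter, Ccnd3 had a first-intron peak (47573134 to 47573282) at 1.75 in KO and 3.48 in CTR (log2 fold -1.73 at FDR 0.191 by the authors' deposited table). Both Ccnd3 peaks were thus lower in KO, and the single Ccnd1 peak was lower while the single Ccnd2 peak was higher. Cdk6, the partner kinase of these cyclins, had 2 peaks on chromosome 5, both with positive folds. The upstream peak, from 3301145 to 3301556, overlapped the RefSeq gene Gm36470 and lay 39448 bases from Cdk6. It was at 5.27 in KO and 3.91 in CTR (log2 fold 1.36 at FDR 0.428 by the authors' deposited table). In the second intron of Cdk6, from 3375973 to 3376131, the level was 3.44 in KO and 1.51 in CTR (log2 fold 1.94 at FDR 0.291 by the authors' deposited table). Cdk1, the kinase of mitotic entry, had a peak in its first intron on chromosome 10 (69351880 to 69352043), 950 bases from the start, at 2.64 in KO and 4.28 in CTR (log2 fold -1.64 at FDR 0.251 by the authors' deposited table).

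The inhibitors had 6 listed peaks at 3 of 7 genes, 3 higher (50%, against 62.1% of all listed peaks) and 3 lower in KO. Cdkn1a, Cdkn1b, Cdkn2c and Trp53 had none. Cdkn2b encodes p15INK4b, an inhibitor of CDK4 and CDK6, and its 3 peaks on chromosome 4 lay at -148455 to -175335 bases from its start, in an intron of Gm12610. The first of them (89459404 to 89459570) was at 3.44 in KO and 0.67 in CTR (log2 fold 2.78 at FDR 0.0907 by the authors' deposited table), the largest positive fold of the cell cycle genes. Its CTR level is low, where the lowest CTR value is 0.0, and its mean signal was above that of only 12.0% of listed peaks. The second (89478733 to 89479481) was strong in both groups, at 6.98 in KO and 6.38 in CTR (log2 fold 0.60 at FDR 0.464 by the authors' deposited table). The third (89486302 to 89486432), 6821 bases from the second, went the other way, at 1.68 in KO and 3.51 in CTR (log2 fold -1.83 at FDR 0.291 by the authors' deposited table). Within this one intron 2 peaks were therefore higher and 1 lower in KO, while the peak over the Cdkn2a and Gm12610 start sites was lower. Cdkn1c encodes p57KIP2, an inhibitor from an imprinted locus. Its 5' untranslated region on chromosome 7 (143460597 to 143461260) was at 6.31 in KO and 6.93 in CTR (log2 fold -0.61 at FDR 0.381 by the authors' deposited table). Listed peaks of that class were lower in KO in 67.9% of cases. A second Cdkn1c peak, in the last intron of the neighbouring potassium channel gene Kcnq1 (143415171 to 143415397), was at 3.83 in KO and 2.25 in CTR (log2 fold 1.58 at FDR 0.374 by the authors' deposited table).

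E2F and MYC regulators had 6 listed peaks at 4 of 10 genes, again 3 higher (50%, against the same 62.1%) and 3 lower in KO. None was listed for E2f1, E2f3, Foxm1, Mycn, Rbl1 or Rbl2. Myc, the growth-promoting transcription factor gene, had 2 intergenic peaks on chromosome 15 that flank it, both with positive folds. The upstream peak (61974144 to 61974522) was at 5.25 in KO and 3.79 in CTR (log2 fold 1.45 at FDR 0.114 by the authors' deposited table). The downstream peak (61992542 to 61992870), 2181 bases past the RefSeq end of the gene, was at 4.66 in KO and 3.42 in CTR (log2 fold 1.24 at FDR 0.213 by the authors' deposited table). The next listed peaks on that side, assigned to the non-coding gene Pvt1, had log2 folds of 0.82 at FDR 0.427 and -2.36 at FDR 0.0702 by the authors' deposited table. Mybl2 had both of its peaks lower in KO, the promoter above and a first-intron peak (163055386 to 163055675) at 3.67 in KO and 4.85 in CTR (log2 fold -1.18 at FDR 0.268 by the authors' deposited table). The 2 Mybl2 peaks lie 498 bases apart and may not be independent readings. E2f2, an activating E2F gene, had a fifth-intron peak on chromosome 4 (136185326 to 136185886) at 5.95 in KO and 5.28 in CTR (log2 fold 0.66 at FDR 0.504 by the authors' deposited table). Rb1, the retinoblastoma gene, whose protein binds and silences E2F factors, had an intergenic peak on chromosome 14 (73347289 to 73347832) at 4.69 in KO and 5.40 in CTR (log2 fold -0.71 at FDR 0.528 by the authors' deposited table).

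Replication and proliferation-marker genes had 4 listed peaks at 2 of 10 genes, 2 higher (50%, against 62.1% of all listed peaks) and 2 lower in KO. Birc5, Mcm2, Mcm3, Mcm4, Mcm5, Mcm7, Pcna and Top2a had none, so of the 6 helicase subunits of the MCM ring 1 had a peak. That peak, assigned to Mcm6, lies in an intron of Dars, a transfer RNA synthetase gene, on chromosome 1 (128368773 to 128368900). It was at 1.64 in KO and 3.24 in CTR (log2 fold -1.60 at FDR 0.508 by the authors' deposited table). Mki67 encodes Ki-67, the protein used to mark dividing cells, and its 3 peaks on chromosome 7 were all intergenic and upstream. The nearest (135736231 to 135736643) was at 5.18 in KO and 4.18 in CTR (log2 fold 1.00 at FDR 0.289 by the authors' deposited table). The middle one (135791094 to 135791265) was at 3.64 in KO and 2.30 in CTR (log2 fold 1.34 at FDR 0.470 by the authors' deposited table). The farthest (135792845 to 135793199) was at 3.12 in KO and 4.55 in CTR (log2 fold -1.43 at FDR 0.134 by the authors' deposited table). The last 2 are 1580 bases apart and have opposite signs.

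By annotation class, the 11 intron peaks of the cell cycle genes were 6 higher and 5 lower (45.5%), against 44.5% lower among all listed intron peaks. The 11 intergenic peaks were also 6 higher and 5 lower (45.5%), against 24.9% lower among all listed intergenic peaks. The 5 lower ones include the 2 Plk2 peaks 115 bases apart, which may not be independent readings. No cell cycle gene had a listed exon peak. Of the 8 genes with more than 1 peak, 2 had positive folds throughout (Myc and Cdk6), 2 had negative folds throughout (Ccnd3 and Mybl2) and 4 were mixed (Plk2, Cdkn2b, Cdkn1c and Mki67). Of the 8 genes with 1 peak, 6 had a negative and 2 a positive fold.

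**Figure D3:**
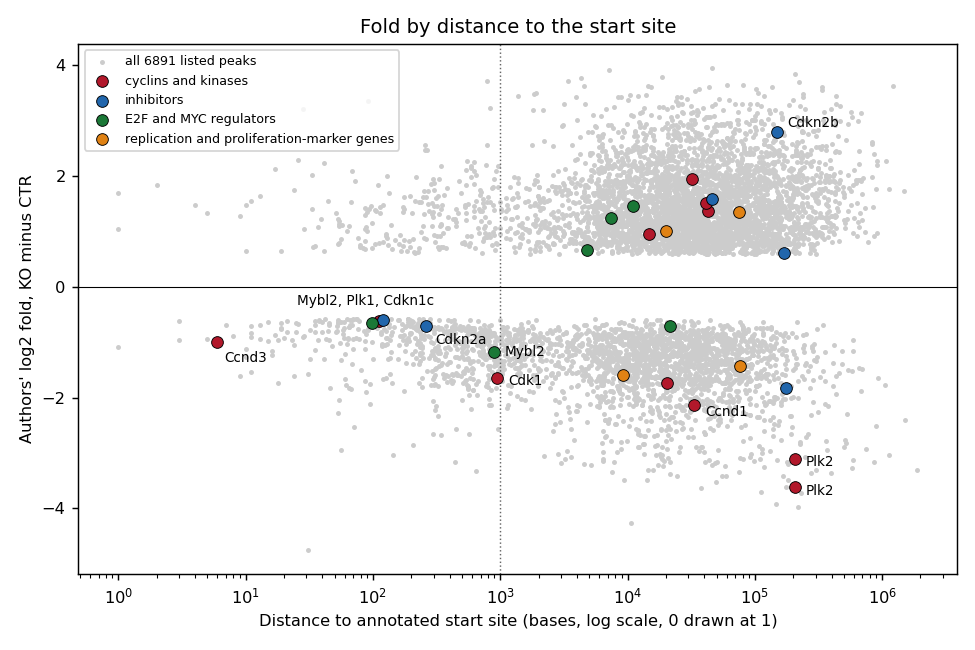
Log2 fold (KO minus CTR) against distance to the annotated start site on a log scale, for all 6891 listed peaks (grey) and the 27 of the cell cycle genes, coloured by role. Left of the dotted line at 1 kb all 7 coloured points lie below 0, and right of it 12 lie above and 8 below.

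The strongest peaks had small log2 folds. Peaks of mean log2 signal of at least 6 had log2 folds of at most 1.36 in size over the whole table. The log2 folds of the 5 such peaks of the cell cycle genes ranged from -0.71 to 0.60 in the authors' deposited table. Of these 5, 4 were lower in KO, where 36.2% of all 389 such peaks, at any position, were. The 4 are the promoter and 5' UTR peaks of Plk1, Mybl2, Cdkn2a and Cdkn1c, already counted within 1 kb of a start site. At that range 69.4% of all listed peaks were lower, so signal and position were not separated. The log2 folds above 2 in size belonged to Plk2, Cdkn2b and Ccnd1, at peaks with a mean signal between 2.40 and 3.56 in the authors' deposited table. No source used here states how many reads stand behind these means.

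**Figure D4:**
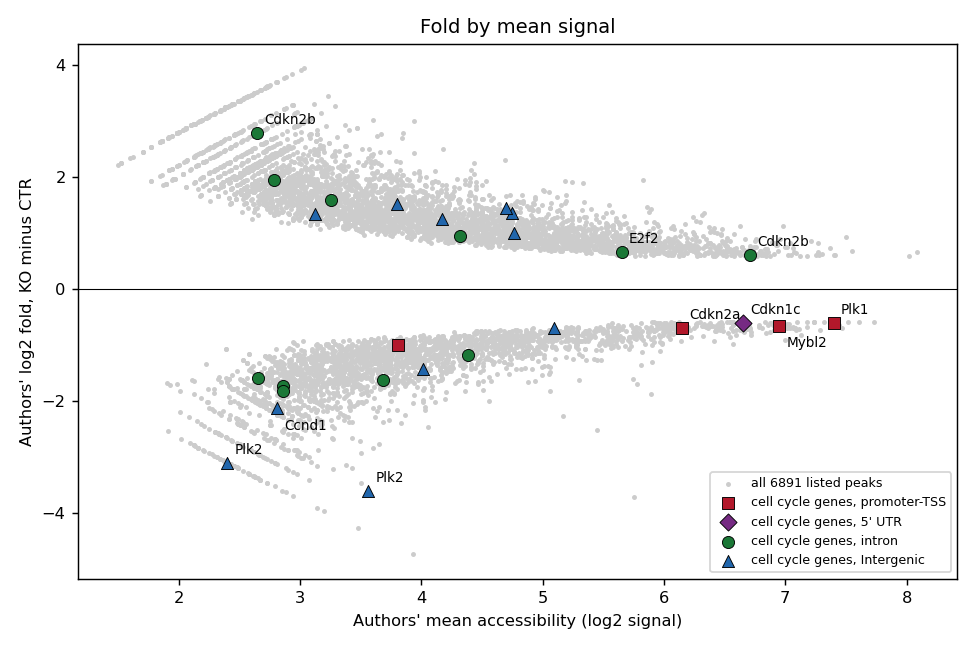
Log2 fold (KO minus CTR) against mean log2 signal for all listed peaks (grey) and those of the cell cycle genes by annotation class. The promoter and 5' UTR peaks of Plk1, Mybl2, Cdkn1c and Cdkn2a lie at the right with folds from -0.61 to -0.71, and the Plk2 and Ccnd1 intergenic peaks at the lower left.

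Some genes have a listed peak under another name. Of the 28 cell cycle genes with no assigned peak, 4 had a listed peak within 10 kb of their RefSeq span, and 24 had none. All 4 of these peaks had negative folds. A peak in the last intron of Ccnb2, a mitotic cyclin gene, was assigned to Mir5626 and stood at 1.68 in KO and 3.15 in CTR (log2 fold -1.47 at FDR 0.481 by the authors' deposited table). Beside the inhibitor gene Cdkn1b, a peak the authors gave to Lockd was at 4.02 in KO and 5.10 in CTR (log2 fold -1.08 at FDR 0.404 by the authors' deposited table). The Tex52 promoter, which overlaps the end of the mitotic transcription factor gene Foxm1, was at 4.38 in KO and 5.20 in CTR (log2 fold -0.82 at FDR 0.509 by the authors' deposited table). The Podxl2 promoter, near the helicase gene Mcm2, was at 2.16 in KO and 3.93 in CTR (log2 fold -1.77 at FDR 0.277 by the authors' deposited table). When peaks were taken by position in this way instead of by assigned name, 3 of 16 (18.8%) were higher in KO. By name it was 12 of 27 (44.4%), and 62.1% of all listed peaks were higher. The position rule keeps peaks in or near genes, and 6 of the 16, with the Tex52 and Podxl2 peaks among them, were promoter peaks. Of all listed promoter peaks 63.6% were lower. No share of all genes under the same rule was computed, so 62.1% is not a like background.

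A wider list of 144 further cell cycle genes had 38 listed peaks at 31 genes, 22 higher (57.9%, against 62.1% of all listed peaks) and 16 lower in KO. Their median log2 fold was 0.805, against 0.93 for all listed peaks in the authors' deposited table. Of the 38, 2 were called (5.26%, against 3.02% of all listed peaks), 1 in each direction. An intergenic peak at -9300 bases from the start of Stag2, a cohesin subunit gene, rose to 4.85 in KO, against 3.00 in CTR (log2 fold 1.85 at FDR 0.0328 by the authors' deposited table). An intergenic peak 7983 bases from the start of Mycl, a MYC family gene, fell to 1.39 in KO, against 3.85 in CTR (log2 fold -2.47 at FDR 0.0333 by the authors' deposited table). The next smallest FDR was at Prim2, a primase subunit gene, with 2.94 in KO and a CTR mean listed at 0, at FDR 0.195 by the authors' deposited table. E2f6, a repressive E2F gene, had a log2 fold of 0.90 at FDR 0.205 and Smc3, another cohesin gene, of 2.42 at FDR 0.237, by the authors' deposited table. The genes of the E2F partner proteins, Tfdp1 and Tfdp2, had intron peaks with log2 folds of -1.65 at FDR 0.218 and -1.78 at FDR 0.278, by the authors' deposited table. A second peak assigned to Tfdp1, at -18286 bases from its start, went the other way with a log2 fold of 1.66 at FDR 0.536 by the authors' deposited table. Rrm1, a ribonucleotide reductase gene, had an upstream peak, at -15610 bases from its start. That peak is classed as exonic through a transcript whose gene is not named, so it was not shown to lie in an Rrm1 exon. Its log2 fold was -1.63 at FDR 0.280, by the authors' deposited table. Within 1 kb of a start site all 5 listed peaks of the wider list had negative folds, from -0.66 to -1.25 in the authors' deposited table. These 5, at Lig1, Fzr1, Mxi1, Fbxw7 and Tyms, are named after their values were seen, and none was called.

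Markers of endothelium and of other cell types that the bead selection could hold had no called peak. Endothelial markers had 10 listed peaks at 5 of 10 genes, 7 higher and 3 lower in KO, where 62.1% of all listed peaks were higher. The 2 listed microglia and macrophage peaks were both lower. Pax6, a gene of retinal progenitors, and Rlbp1, a gene of Müller glia, each had 1 peak that was lower in KO (log2 folds -1.34 at FDR 0.268 and -1.25 at FDR 0.371 by the authors' deposited table). The 2 pericyte and smooth muscle peaks were 1 higher and 1 lower, the 1 photoreceptor peak was higher, and astrocyte markers had none. A table of differing peaks does not show how open these marker genes are, so the labelled cell type could not be checked against them. Fewer cells of a type and less open chromatin per cell cannot be told apart in such bulk samples, and the part of other cells in the cell cycle peaks was not tested.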

How the data were processed

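ATAC-seq was run on CD31-selected retinal endothelial cells of KO and CTR pups. Per the submitters' processing notes, reads were placed on mm10, and the tools named, without roles, were MACS2, DiffBind, edgeR, ChIPseeker, Bowtie2, Trimmomatic 0.36, Picard 1.119, SAMtools and deepTools. No source used here states filters, read shifting, scaling, depth or the libraries behind each group mean. The authors deposited the mean, KO and CTR levels and the fold per peak as log2 values. Each peak also has a p-value and an FDR deposited by the authors, with 0.0499 the largest listed p. The log2 fold equalled KO minus CTR within 0.01, and both deposited copies of the table held the same numbers in all 6891 rows.

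Peaks were taken by assigned gene name, and the sign of the fold, annotation class and distance to the start site were counted with Python 3.11.15 and pandas 2.3.3, without a test of their own. Counts of higher, lower or called peaks by role, list, annotation class and distance were read against the shares of all listed peaks. Intervals in the closing section are Wilson intervals at 95% and cover counting error only. Overlap and motif code was tested on simulated data. All 44 genes matched the RefSeq gene table (GRCm38.p6). The genes, lists, motifs and settings were chosen with earlier results of these data known. All genes with a listed peak are named, and of the wider list the 8 of smallest FDR. The retinal progenitor and Müller glia marker list is reported here in part.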

Additional observations from a re-analysis of the deposited data

How the results depend on the processing

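The called count of 1 became 4 at FDR < 0.10 and 0 when kept to peaks of at least median mean signal, within 50 kb of a start site, or with peaks taken by RefSeq position. The share of the cell cycle peaks higher in KO, 44.4% (Wilson interval 27.6% to 62.7%, counting error only), became 18.8% by RefSeq position, where inhibitors and replication genes stood at 0% (50% by name for each) and the wider list at 41.5% (57.9% by name). With 1 peak per gene, replication genes stood at 0% (50% with all peaks) and intergenic peaks at 20% (54.5% with all peaks). The causes were not tested. The other 57 alternative values stayed within these intervals or within 1.5 times the count. Some of them could not move, because any subset of an all-lower set, such as the promoter peaks, gives 0%. Others had wide intervals, as with 18.8% to 81.2% for the 6 inhibitor peaks, so the number 57 does not measure stability. Among the 57 were the limits of 0.5, 2 and 5 kb around a start site. They were added after seeing the data and gave 0%, 0% and 12.5% higher. The 5' UTR class had 1 peak, which the stricter threshold, the minimum fold and the setting of 1 peak per gene left out. No paired analysis was possible because the table holds group means and no values per library, and for the same reason no library could be left out.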
